A study of Homo sapiens with 32 samples.

Results

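The genes described here are 9 human genes of DNA replication: MCM2, MCM3, MCM4, MCM5, MCM6, MCM7, CDC6, PCNA and RRM2. They were measured by cap analysis of gene expression (CAGE), which counts 1 tag for each capped 5′ end of an RNA, so that a tag marks where transcription started and transcript length does not enter the count. Members were every start site whose hg19 position and strand fell in the window of 1 of these genes. This gave 10 sites out of 19534 in the first of 2 deposited tables and 10 out of 13294 in the second, with 1 site for each gene and 2 for PCNA. The gene names come from those windows, since the tables pair no site with a name. The 10 sites of the second table all lay inside the matching clusters of the first.

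The MCM2 to MCM7 proteins form the ring-shaped helicase that is loaded on origins before S phase and unwinds DNA when the forks start. CDC6 is a loader of that helicase, PCNA is the sliding clamp that holds DNA polymerases on the template, and RRM2 is the small subunit of ribonucleotide reductase, which makes deoxyribonucleotides. The genes are known to be transcribed mainly in cells that pass from G1 into S phase, many of them under E2F factors, so their RNA is often read as a sign of how many cells of a culture are cycling. Androgens are known to act on proliferation of LNCaP cells in a way that depends on dose and time.

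The first table holds 14 libraries of LNCaP, a human line of prostate cancer cells that responds to androgens, at 0, 3, 6, 12, 18, 48 and 72 h of the synthetic androgen R1881, with 2 replicates per time. The second holds 9 libraries of BicR, a prostate cancer line whose name is not spelled out in the labels, and 9 of LNCaP. In each line, 1 library was untreated at 0 h, and 1 library was made at 6 h and 1 at 24 h for each of 4 treatments: the androgen dihydrotestosterone (DHT, 10 nM) together with the androgen receptor antagonist bicalutamide (1 µM), DHT alone, bicalutamide alone, and the vehicle ethanol. All cells had been kept for 3 days in phenol red-free medium with 2.5% charcoal-stripped serum before treatment. The labels give the R1881 dose as 1 nM in one place and as 10 nM in another, and the R1881 course analysed here has no vehicle library after 0 h, so that effects of R1881 and of time in culture cannot be told apart there. The labels do not say whether replicates were separate cultures, and p-values then measure only the spread between these libraries, which may be technical. Since RNA came from whole cultures, fewer expressing cells and less RNA per cell cannot be told apart.

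In hg19 the R1881 clusters lay at chr3:127317149-127317321 (MCM2, plus strand), chr6:52149466-52149607 (MCM3, minus), chr8:48873415-48873575 (MCM4, plus), chr22:35796050-35796179 (MCM5, plus), chr2:136633929-136634066 (MCM6, minus), chr7:99698914-99699063 (MCM7, minus), chr17:38444066-38444242 (CDC6, plus) and chr2:10262800-10262953 (RRM2, plus). PCNA is on the minus strand of chr20, with its stronger site at chr20:5100430-5100689 and a weaker one, called PCNA upstream here, at chr20:5107163-5107320. The named positions of the PCNA sites were 6616 bp apart. The stronger of them and the single sites of the other genes are called the 9 leading sites.

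Libraries of the second table held between 4139807 and 7753336 tags, and R1881 libraries between 128463 and 3837493. In the R1881 course replicate 1 was the shallower library at every time, and at 6 h and 18 h its 9 leading sites together held only 20 and 11 tags. Values are in RPM, tags scaled to a common library total, which in these tables are the tags of a library times 1 factor. A count of 0 allows up to 3 tags, which corresponds to 0.326 to 0.601 RPM in the second table and 0.691 to 19.4 RPM in the R1881 table. These limits, and all intervals below, cover counting error only. The BicR library with DHT and bicalutamide at 6 h stood apart from the rest, with a median correlation of 0.894 with the other BicR libraries, against 0.954 to 0.966 for those others. In the R1881 table the libraries of 6 h and 18 h had the lowest median correlations, from 0.660 to 0.724. The markers by which LNCaP is usually recognised were not analysed here.

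Promoter sequences are shown because start sites are what CAGE counts and because these genes share known promoter elements. They are RefSeq windows of GRCh38.p14 from 250 bases before to 50 bases after a listed gene start, a build other than that of the tags. 7 of the 9 genes have a window here. Windows on the chromosome of MCM4 were left out of the search for members, and none was found for MCM5. The share over all promoters was taken with no chromosome left out. Printed below are RRM2, CDC6, MCM2, MCM6 and both listed starts of PCNA, written 5′ to 3′ on the gene's strand, with E2F words in capitals (TTTCCCGC, TTTGGCGC, TTTCGCGC or TTTGCCGC, on either strand).
RRM2, chr2:10122489-10122788, plus strand: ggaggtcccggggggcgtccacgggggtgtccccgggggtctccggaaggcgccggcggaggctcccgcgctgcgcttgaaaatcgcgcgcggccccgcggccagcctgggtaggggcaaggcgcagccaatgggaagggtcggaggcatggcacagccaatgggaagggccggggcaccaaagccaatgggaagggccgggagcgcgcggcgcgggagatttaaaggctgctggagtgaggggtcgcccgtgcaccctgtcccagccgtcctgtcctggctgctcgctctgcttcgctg
CDC6, chr17:40287629-40287928, plus strand: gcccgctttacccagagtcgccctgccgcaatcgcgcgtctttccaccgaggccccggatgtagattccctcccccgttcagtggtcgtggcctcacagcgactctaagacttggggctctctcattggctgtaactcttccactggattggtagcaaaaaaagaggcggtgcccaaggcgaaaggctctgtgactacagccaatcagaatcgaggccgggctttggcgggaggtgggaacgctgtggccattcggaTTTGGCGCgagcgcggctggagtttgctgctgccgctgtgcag
MCM2, chr3:127598161-127598460, plus strand: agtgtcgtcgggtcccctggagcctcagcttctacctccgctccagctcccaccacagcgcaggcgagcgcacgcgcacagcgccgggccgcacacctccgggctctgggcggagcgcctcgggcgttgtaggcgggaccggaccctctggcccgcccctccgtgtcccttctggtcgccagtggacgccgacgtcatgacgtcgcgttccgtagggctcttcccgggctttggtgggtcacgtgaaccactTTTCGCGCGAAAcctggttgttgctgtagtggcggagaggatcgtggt
MCM6, chr2:135876394-135876693, minus strand: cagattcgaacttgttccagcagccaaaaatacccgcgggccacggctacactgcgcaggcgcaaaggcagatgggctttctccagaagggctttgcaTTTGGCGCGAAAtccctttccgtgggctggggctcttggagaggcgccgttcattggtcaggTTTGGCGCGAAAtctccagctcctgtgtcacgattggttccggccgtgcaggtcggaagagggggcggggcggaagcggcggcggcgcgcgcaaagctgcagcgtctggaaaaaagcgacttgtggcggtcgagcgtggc
PCNA, first listed start, chr20:5126573-5126872, minus strand: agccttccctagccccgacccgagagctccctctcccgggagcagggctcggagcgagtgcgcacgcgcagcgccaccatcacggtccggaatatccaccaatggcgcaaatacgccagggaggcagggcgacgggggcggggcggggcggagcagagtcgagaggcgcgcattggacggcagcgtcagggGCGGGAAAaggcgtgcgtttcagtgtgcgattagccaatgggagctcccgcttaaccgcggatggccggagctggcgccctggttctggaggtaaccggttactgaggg
PCNA, second listed start, chr20:5119909-5120208, minus strand: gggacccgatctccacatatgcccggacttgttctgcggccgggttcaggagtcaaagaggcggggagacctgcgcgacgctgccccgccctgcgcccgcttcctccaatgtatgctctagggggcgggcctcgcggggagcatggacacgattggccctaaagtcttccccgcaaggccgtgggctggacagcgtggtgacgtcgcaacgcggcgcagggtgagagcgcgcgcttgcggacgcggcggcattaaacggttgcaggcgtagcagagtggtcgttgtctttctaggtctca

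Taking the first listed window of each gene, 6 of 7 held an E2F word (all but RRM2), against 3.31% of the 35116 promoters of the RefSeq table. In MCM2 and MCM6 words on the 2 strands overlap, so that a run of capitals there holds 2 words. The word CCAAT stood in 6 of 7 (all but MCM2), against 34.6% of all promoters, and the GC box GGGCGG in 4 of 7, against 45.0%. The androgen receptor word AGAACA was in 0 of 7 of these windows, against 14.8% of all promoters, and the full androgen response element was in 0 of 7. PCNA lies on the minus strand, so its first listed start is the upstream one and its second the downstream one, 6664 bp apart. The leading CAGE site of PCNA is likewise the downstream of its sites, though positions were not converted between the builds. The upstream window holds 1 E2F word and no AGAACA, and the downstream window holds no E2F word and 1 AGAACA. With the downstream window in place of the upstream one, 5 of 7 genes held an E2F word and 1 of 7 AGAACA. These matches describe letters in a 300-base window and say nothing of binding.

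The untreated libraries gave the order of the levels before any treatment. PCNA was highest in both lines, at 214 RPM (exact 95% Poisson interval 204 to 224) in BicR and 102 RPM (93.3 to 111) in LNCaP. RRM2 came next, at 167 RPM in BicR and 70.0 RPM in LNCaP. MCM2, MCM4 and MCM7 followed, with 117, 111 and 99.9 RPM in BicR and 64.4, 63.5 and 57.8 RPM in LNCaP. The intervals of neighbours in this trio overlapped in both lines, and in LNCaP that of RRM2 overlapped with MCM2 as well. MCM3, MCM5, MCM6 and CDC6 lay between 43.7 and 57.1 RPM in BicR and between 29.0 and 40.2 RPM in LNCaP, and each overlapped its neighbour in the order. PCNA upstream was the lowest, with 23.9 RPM in BicR and 18.3 RPM in LNCaP. Over all sites of that table the median of the mean RPM was 22.1. All 9 leading sites were thus higher in untreated BicR than in untreated LNCaP cells, by 1.23 times (MCM3) to 2.38 times (RRM2), from 1 library each and with no replicate check.

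During the R1881 course all 9 leading sites were lowest at 48 h or 72 h in replicate 2, and RRM2 stood furthest below its earlier level. In replicate 1, with fewer tags, this held for RRM2 and PCNA only. RRM2, the subunit of ribonucleotide reductase whose level is known to follow the cell cycle, read 176, 159, 272, 170, 154, 5.11 and 0.691 RPM at 0, 3, 6, 12, 18, 48 and 72 h in replicate 2. In replicate 1 it read 15.0, 22.9, 11.4, 15.9, 6.48, 3.06 and 0 RPM. Both replicates were lowest at 48 h and 72 h, but their levels before then differed by several times. In replicate 1 the values of 6 h, 18 h and 48 h rested on 2, 1 and 2 tags. Their order is therefore not readable at this depth. At 72 h only 3 tags were left in replicate 2, against 640 at 0 h, a ratio of 0.00392 (exact 95% interval 0.000806 to 0.0115). In replicate 1 there were 0 tags at 72 h, which allows up to 3.04 RPM, against 19 tags at 0 h.

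The clamp gene PCNA kept a higher level. Its leading site read 174, 145, 239, 114, 98.1, 50.5 and 53.9 RPM in replicate 2 and 49.1, 41.7, 68.4, 47.8, 38.9, 22.9 and 24.3 RPM in replicate 1. Every library of 48 h and 72 h was below every earlier library of the same replicate. The helicase loader CDC6 read 27.8, 20.2, 50.7, 33.8, 35.4, 4.03 and 1.61 RPM in replicate 2 and 1.58, 6.25, 5.70, 7.97, 0, 1.53 and 2.03 RPM in replicate 1. In replicate 1 it rested on 0 to 3 tags a library, so its course there is not readable at this depth.

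Among the helicase subunits MCM2 read 62.0, 45.0, 41.4, 34.2, 17.4, 5.11 and 5.99 RPM in replicate 2, the steadiest descent of the group. In replicate 1 it read 36.4, 8.34, 5.70, 15.9, 0, 9.17 and 13.2 RPM, highest at 0 h and without such a descent. MCM4 read 63.6, 48.1, 88.7, 40.5, 37.3, 12.9 and 6.68 RPM in replicate 2 and 14.2, 16.7, 5.70, 7.97, 0, 4.59 and 5.07 RPM in replicate 1. MCM7 read 58.1, 51.9, 59.5, 40.9, 32.3, 8.33 and 3.22 RPM in replicate 2 and 11.9, 4.17, 11.4, 10.6, 6.48, 9.17 and 8.12 RPM in replicate 1. For MCM7 the late values were far below the others in replicate 2 only. MCM3, MCM5 and MCM6 had their lowest values at 48 h or 72 h in replicate 2 (6.45 and 5.30, 12.4 and 8.98, 8.07 and 8.98 RPM). In replicate 1 they did not, with 10.7 and 8.12, 7.64 and 16.2, and 15.3 and 7.10 RPM, where 5.70 RPM or more is a single tag at 6 h and 18 h.

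**Figure D1:**
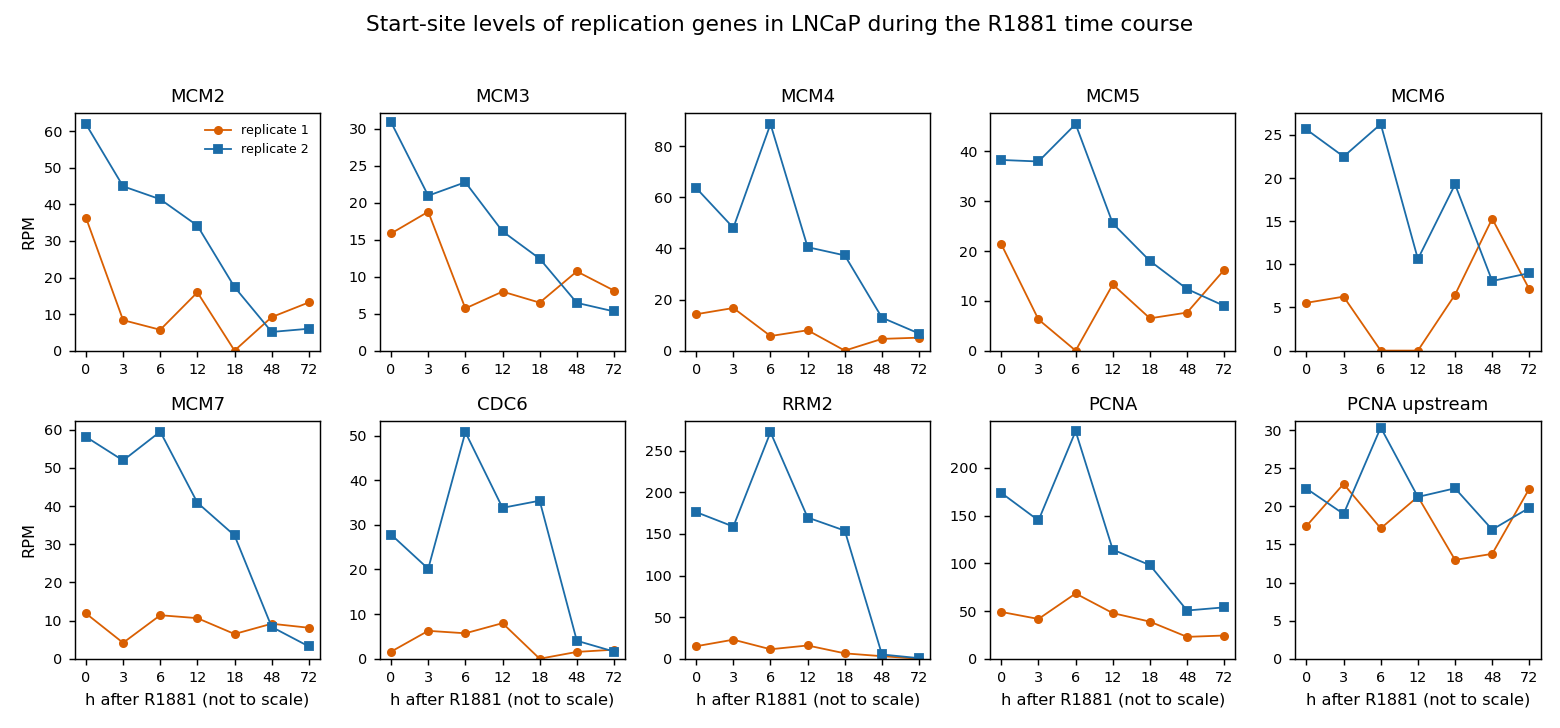
RPM of each start site (y axis, linear, from 0) at 0 to 72 h of R1881 in LNCaP (x axis, times evenly spaced and not to scale), 1 point per library, with replicate 1 as circles and replicate 2 as squares. RRM2 in replicate 2 stands at 154 RPM or more up to 18 h and at 5.11 and 0.691 RPM at 48 h and 72 h, while PCNA upstream stays between 13.0 and 30.3 RPM in all 14 libraries.

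The replicates differed in level as well as in depth. The 9 leading sites summed to 656, 550, 846, 486, 424, 113 and 95.3 RPM over the 7 times in replicate 2, against 171, 131, 114, 128, 71.3, 84.1 and 84.2 RPM in replicate 1. At 0 to 18 h all 9 sites were higher in replicate 2, with a median log2 difference of 1.85 to 3.15, while the median over all sites was 0.09 to 0.44. At 48 h and 72 h 5 of 9 and 4 of 9 were higher, with medians of 0.60 and -0.12. Within replicate 2 all 9 were lower than at 0 h at both late times, and their sum was 5.81 times lower at 48 h and 6.89 times lower at 72 h. Within replicate 1, 8 of 9 were lower at 48 h (all but MCM6) and 7 of 9 at 72 h (all but MCM6 and CDC6), and the sum was 2.03 times lower at each. Of all sites, 53.2% at 48 h and 53.6% at 72 h were lower than at 0 h in replicate 2, and 51.9% and 46.9% in replicate 1. What makes the replicate numbers differ is not given in the labels and was not tested.

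In the fit over the 14 libraries (edgeR's quasi-likelihood test with Benjamini-Hochberg adjustment over all 15999 sites tested, called at an adjusted p under 0.05) none of the 9 leading sites was called against 0 h at any time. Of all sites, 0.494% were called lower at 48 h and 0.988% at 72 h. All 9 fitted log2 changes were negative at 48 h, with a median of -1.94, and 3 had an unadjusted p under 0.05. At 72 h all 9 were negative again, with a median of -2.41, and 6 had an unadjusted p under 0.05. Both medians rest largely on replicate 2 of 0 h: without it they were -0.46 at 48 h and -1.12 at 72 h, with 7 of 9 negative at each, and RRM2 stood at -1.66 in place of -4.33 at 48 h and at -4.51 at 72 h. DESeq2 called 0 at 48 h and 1 at 72 h. RRM2 was nearest to the threshold, at -7.21 ± 1.96 (SE, n = 2 each; adjusted p = 0.0671) for 72 h, a value that rests on 3 tags. The libraries were also blocked by replicate number. Such a block holds the difference between replicates constant, whereas for the leading sites it was larger before 48 h than from then on. With the block 5 leading sites fell at 48 h and 7 at 72 h, where 3.58% and 5.89% of all sites were called lower. At 48 h these were MCM2 (-3.05 ± 0.66, adjusted p = 0.00438), MCM4 (-2.09 ± 0.53, adjusted p = 0.0135), CDC6, PCNA and RRM2 (-4.67 ± 0.64, adjusted p = 5.2e-05). At 72 h MCM3 (-1.86 ± 0.51, adjusted p = 0.0187) and MCM7 (-2.80 ± 0.71, adjusted p = 0.0112) were called besides those 5. MCM5 and MCM6 were called at neither time, with log2 changes of -1.26 ± 0.58 and -0.86 ± 0.64 at 72 h.

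Before 48 h nothing was called among them, without the block or with it. The medians of the 9 log2 changes over 3, 6, 12 and 18 h were -0.22, 0.40, -0.53 and -0.46. These medians turn with 1 library. Without replicate 2 of 0 h they were 1.25, 1.87, 0.77 and 0.96, and without replicate 2 of the later time itself they were -1.59, -2.90, -1.67 and -2.48. Without the block 0 of 9 passed 0.05 with the unadjusted value at each of these times, DESeq2 made 0 calls, and 0%, 0%, 0.231% and 0.988% of all sites were called. With the block 0.288%, 6.61%, 1.98% and 13% of all sites were called, and 1 leading site had an unadjusted p under 0.05 at 6 h (CDC6 at 1.26 ± 0.55, adjusted p = 0.145) and 1 at 18 h (MCM2 at -1.90 ± 0.66, adjusted p = 0.0595). At 6 h 7 of 9 values were above 0, CDC6 highest at 1.32 and MCM2 lowest at -0.57, all with SEs of 0.60 or more.

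The late comparison takes 48 h with 72 h (4 libraries) and sets them against 3 h with 6 h (4 libraries), so that it uses no library of 0 h. RRM2 averaged 2.21 ± 2.33 RPM late and 116 ± 124 RPM early (SD, n = 4 each). PCNA averaged 37.9 ± 16.6 RPM late and 123 ± 88.4 RPM early, and MCM4 7.31 ± 3.84 RPM late and 39.8 ± 37.2 RPM early. In the early group replicate 2 stood above replicate 1 in each of these genes. RRM2 (log2 change -5.81 ± 0.99, adjusted p = 0.00453), MCM4 (-2.64 ± 0.62, adjusted p = 0.0229), MCM7 (-2.54 ± 0.65, adjusted p = 0.0339) and MCM2 (-2.04 ± 0.57, adjusted p = 0.0493) fell, 4 of the 8 leading sites tested, where 3.06% of all sites were called lower. MCM3 (-1.51 ± 0.43, adjusted p = 0.0512) and PCNA (-1.86 ± 0.53, adjusted p = 0.0531) missed the threshold, and without the 6 h library of replicate 2 the change of PCNA was -1.22. MCM5 stood at -1.40 ± 0.61 and MCM6 at -0.99 ± 0.55, and CDC6 was below the count filter in this fit. With the replicate block 5 fell (MCM3, MCM4, MCM7, PCNA and RRM2), against 4.8% of all sites. Leaving out 1 library at a time gave 1 to 6 calls, with 1 call without the 3 h or the 72 h library of replicate 2 and 2 without either replicate 1 late library, the 6 h library of replicate 2 or its 48 h library. RRM2 was called in each of these 8 settings. Of the 9 leading sites, late and early libraries did not overlap for RRM2 and CDC6, all late ones being lower, against 5.14% of all sites. For CDC6 this rests on tag size, since its lowest early value, 5.70 RPM, is 1 tag, and its highest late value is 4.03 RPM. For RRM2 the lowest early value, 11.4 RPM, is likewise only 2 tags (6 h, replicate 1), and the highest late value is 5.11 RPM.

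In each line of the second table, libraries at 24 h were set against those at 6 h over the 4 treatments. In BicR all 9 leading sites fell. Under each treatment, the ethanol vehicle included, 8 or 9 of the 9 leading sites read lower at 24 h than at 6 h in each line. RRM2 read 33.2 RPM with DHT and bicalutamide, 53.9 with DHT, 73.8 with bicalutamide and 112 with ethanol at 24 h in BicR, against 151, 186, 153 and 134 RPM in the same order at 6 h. In LNCaP it read 39.1, 30.8, 38.8 and 52.1 RPM at 24 h, against 56.5, 73.6, 76.6 and 69.7 RPM at 6 h. In both lines every 24 h library was below every 6 h library. The fitted log2 change was -1.45 ± 0.23 in BicR (adjusted p = 0.00281) and -0.81 ± 0.24 in LNCaP (adjusted p = 0.134).

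PCNA read 65.6, 104, 89.7 and 124 RPM at 24 h in BicR, in the same order of treatments, against 154, 166, 165 and 172 RPM at 6 h. In LNCaP it read 79.1, 70.9, 72.0 and 97.7 RPM at 24 h, against 106, 109, 126 and 122 RPM at 6 h. Its change was -0.96 ± 0.12 in BicR (adjusted p = 0.00115) and -0.56 ± 0.12 in LNCaP (adjusted p = 0.0525). Again no 24 h library reached the level of a 6 h library in its line. CDC6 read 12.9, 23.7, 24.2 and 26.5 RPM at 24 h in BicR, against 58.9, 41.1, 38.9 and 31.2 RPM at 6 h. Its highest value of all, 58.9 RPM, was in the BicR library that stood apart. In LNCaP CDC6 read 16, 14, 12.5 and 14.9 RPM at 24 h, against 19.5, 19.8, 26.4 and 21.9 RPM at 6 h.

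Of the helicase subunits MCM4 had the steepest decline. MCM4 read 24.9, 37.9, 37.2 and 50.3 RPM at 24 h in BicR, against 99.4, 89.2, 83.9 and 83.9 RPM at 6 h. In LNCaP it read 27.7, 26.1, 25.5 and 37.4 RPM at 24 h, against 41.3, 52.1, 55.1 and 51.6 RPM at 6 h. The changes were -1.42 ± 0.16 in BicR (adjusted p = 0.000945) and -0.80 ± 0.16 in LNCaP (adjusted p = 0.0421), the single call among the 9 in LNCaP. MCM2 averaged 42.3 ± 15.0 RPM at 24 h and 83.8 ± 4.66 RPM at 6 h in BicR, and 32.1 ± 7.52 RPM at 24 h and 52.9 ± 5.56 RPM at 6 h in LNCaP (SD, n = 4 treatments). MCM7 averaged 37.8 ± 12.2 and 74.6 ± 6.17 RPM at 24 h and 6 h in BicR, and 25.8 ± 5.38 and 43.4 ± 3.35 RPM in LNCaP. Both had all 24 h libraries below all 6 h libraries in each line. MCM5 averaged 25.2 ± 6.54 RPM at 24 h and 46.3 ± 4.73 RPM at 6 h in BicR, and 16.4 ± 2.07 RPM at 24 h and 24.8 ± 3.81 RPM at 6 h in LNCaP, also without overlap.

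MCM3 and MCM6 had the smallest changes. MCM3 averaged 25.2 ± 5.55 RPM at 24 h and 40.2 ± 12.1 RPM at 6 h in BicR, with a change of -0.79 ± 0.20 (adjusted p = 0.0177). This size depends on the libraries with DHT and bicalutamide: the change was -0.48 without that of 6 h, the library that stood apart, and -0.46 without that of 24 h, called in both cases (largest adjusted p = 0.0475). In LNCaP it averaged 26.0 ± 2.38 RPM at 24 h and 31.1 ± 3.45 RPM at 6 h, with a change of -0.28 ± 0.20. MCM6 averaged 29.4 ± 5.83 RPM at 24 h and 41.6 ± 4.95 RPM at 6 h in BicR, with a change of -0.66 ± 0.16 (adjusted p = 0.0151), and stood at -0.35 ± 0.17 in LNCaP. For these subunits the 24 h and 6 h libraries overlapped in both lines. MCM6 lost its BicR call, with adjusted p-values of 0.0514 to 0.0844, without any 1 of the 4 BicR libraries with bicalutamide, alone or with DHT, at 6 h or 24 h.

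**Figure D2:**
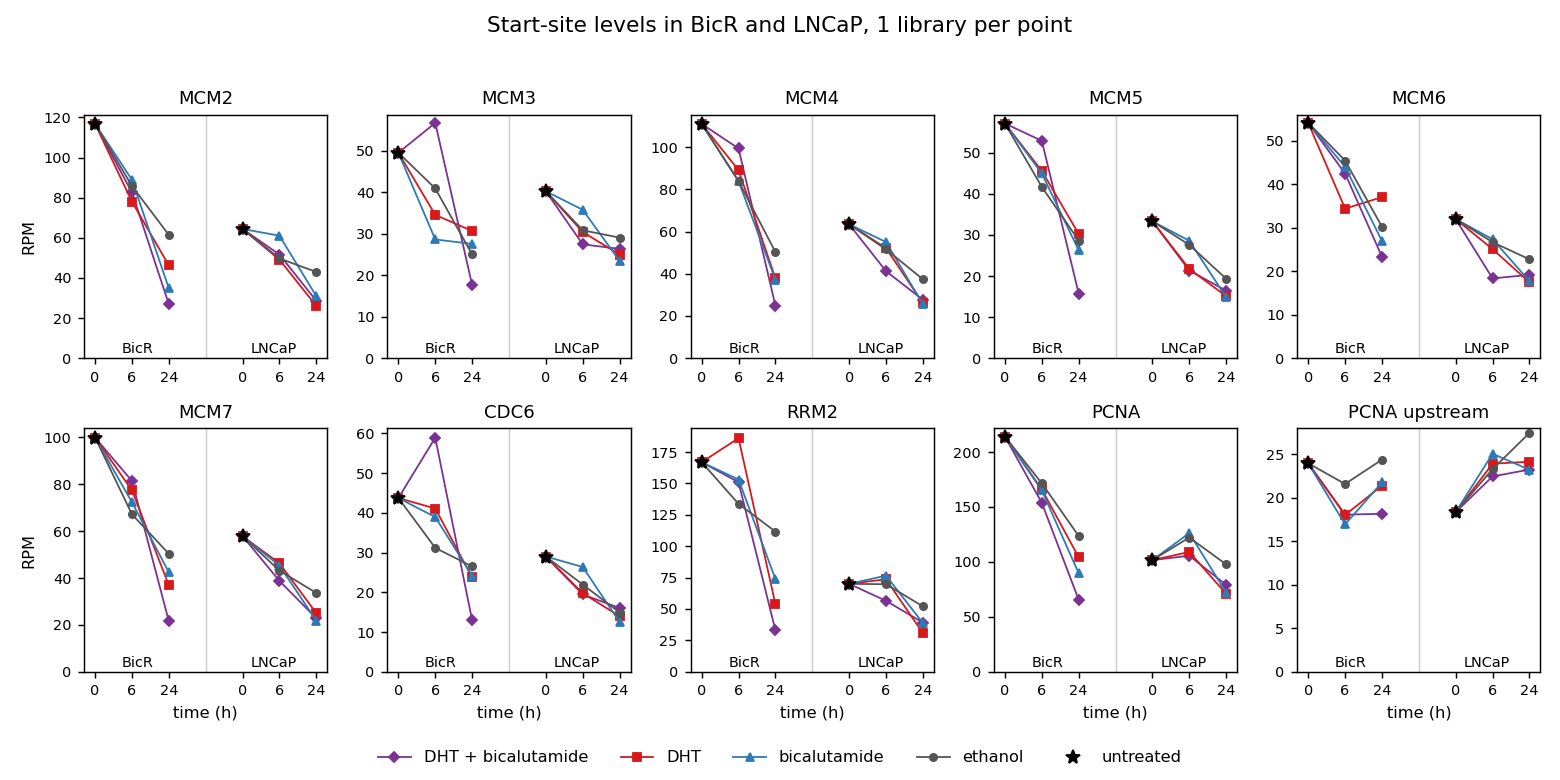
RPM of each start site (y axis, linear, from 0) at 0, 6 and 24 h in BicR (left of the grey line in each panel) and LNCaP (right of it), 1 library per point, with treatments as marked and the untreated 0 h library as a star. PCNA stands at 65.6 to 124 RPM in the 24 h libraries of BicR, below the 154 to 172 RPM of its 6 h libraries, whereas PCNA upstream stays between 16.9 and 27.4 RPM in all treated libraries.

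Counted together, 9 of 9 leading sites fell in BicR, where 11.2% of all sites were called lower, and 1 of 9 in LNCaP, where 0.893% were. The median log2 changes were -1.09 in BicR and -0.62 in LNCaP. 7 of 9 in LNCaP passed 0.05 with the unadjusted value, and DESeq2 made 4 calls there. Leaving out 1 library at a time left 8 or 9 calls in BicR and 0 to 3 in LNCaP: 3 without either LNCaP ethanol library, and 0 without any of the 6 other LNCaP libraries. Without the BicR library that stood apart, the same fit called 7 in LNCaP, and the share of all sites called in that setting is not given here. All 9 differences between the lines were negative, with a median of -0.43, yet 0 passed the test of the difference, in which 0% of all sites did. 2 of these 9 passed 0.05 with the unadjusted value, and DESeq2 made 0 calls. All 24 h libraries were below all 6 h libraries for 7 of 9 leading sites in each line, against 2.84% of all sites in BicR and 5.84% in LNCaP. All 24 h libraries were above all 6 h libraries for 0 of 9, against 18.5% of all sites in BicR and 4.99% in LNCaP. The ethanol 6 h library was below the untreated 0 h library for 9 of 9 in BicR (median ratio 0.756) and for 8 of 9 in LNCaP (median ratio 0.813, PCNA the exception at 1.20), each from 1 library against 1.

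The lines also differed in level. With ethanol, the fitted BicR over LNCaP log2 difference had a median of 0.66 and RRM2 alone was higher by the test (1.15 ± 0.33, adjusted p = 0.0419), where 5.18% of all sites were called higher in BicR. 8 of 9 passed 0.05 with the unadjusted value, and DESeq2 made 0 calls. RRM2 lost its call without either LNCaP ethanol library or without the BicR ethanol library of 24 h, with 0 calls in each and RRM2 at 0.40 to 1.42, and 7 sites were called without the BicR library that stood apart. Averaged over the 4 treatments, 8 of 9 were higher in BicR, where 24.5% of all sites were. RRM2 differed most (0.97 ± 0.16, adjusted p = 0.000473), followed by CDC6 (0.80 ± 0.16, adjusted p = 0.00169), MCM5 (0.79 ± 0.12, adjusted p = 0.000224), MCM6 (0.73 ± 0.12), MCM7 (0.69 ± 0.13), MCM4 (0.63 ± 0.11), MCM2 (0.55 ± 0.13) and PCNA (0.41 ± 0.08, adjusted p = 0.00195). MCM3 did not pass, at 0.18 ± 0.14. In a fit without the time term MCM2, MCM4, MCM7 and PCNA lost their calls, with adjusted p-values of 0.0809 to 0.159. These contrasts set the level between the lines against the 6 h to 24 h spread of treatment effects within them. Taken as ranges over the 8 treated libraries, BicR and LNCaP overlapped for every leading site, 0 of 9 standing apart. Of all sites 2.86% stood wholly higher in BicR and 5.66% wholly lower. In the pair of libraries with DHT and bicalutamide at 24 h, 8 of 9 sites were lower in BicR, with a median ratio of 0.901. In the same treatment at 6 h all 9 were higher, with a median ratio of 2.32. The BicR library of that 6 h pair is the one that stood apart. In the other pairs of treated libraries the median ratios ran from 1.43 to 1.70.

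**Figure D3:**
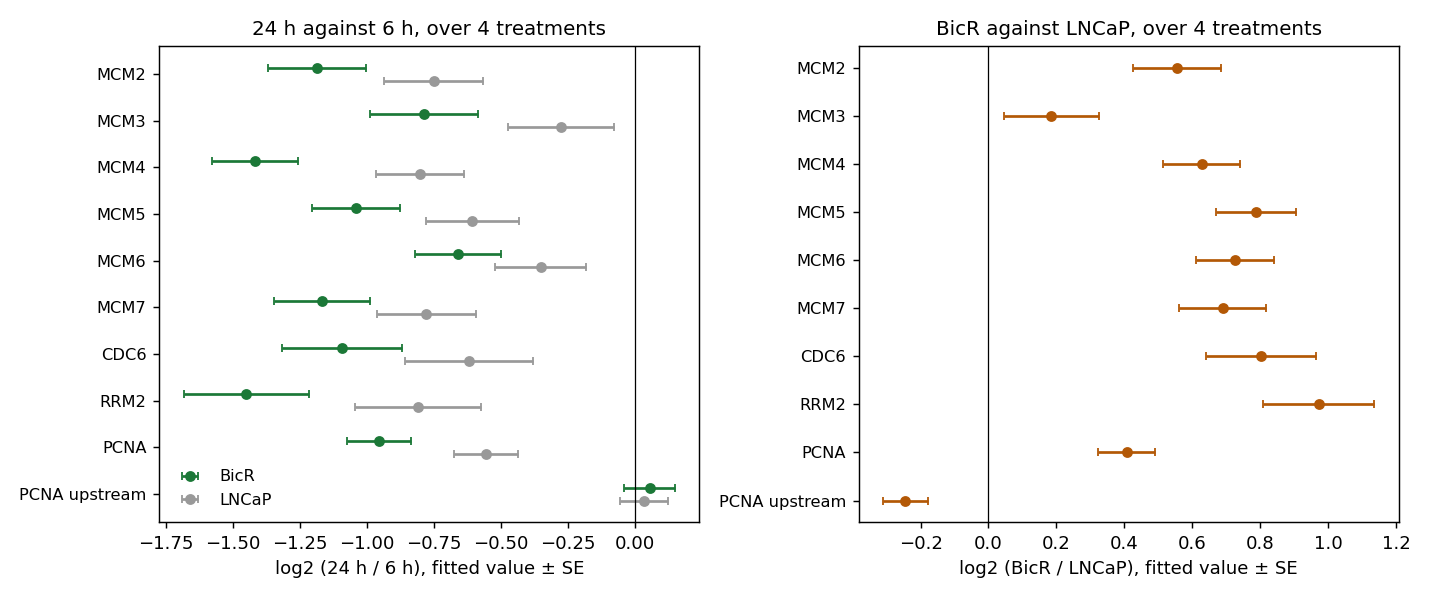
Fitted log2 change of each start site with its SE, for 24 h against 6 h in BicR and in LNCaP (left) and for BicR against LNCaP over the 4 treatments (right), from edgeR's fit of 16 libraries. On the left all 9 leading sites lie below 0 in both lines, from -1.45 (RRM2 in BicR) to -0.28 (MCM3 in LNCaP). On the right PCNA upstream, at -0.24, is the one site below 0.

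Neither DHT nor bicalutamide, alone or together, gave a call among the 9 leading sites in either line. For DHT against ethanol the fitted changes ran from -0.37 (RRM2) to 0.08 (MCM5) in BicR, with SEs of 0.17 to 0.32, and from -0.33 (MCM2) to -0.08 (MCM3) in LNCaP, with SEs of 0.17 to 0.34. Of all sites 3.41% were called either way in BicR and 0.129% in LNCaP. For bicalutamide against ethanol they ran from -0.31 to 0.13 in BicR and from -0.22 to 0.09 in LNCaP, where 0.197% and 0.00757% of all sites were called. For DHT with bicalutamide against DHT they ran from -0.41 (RRM2) to 0.06 in BicR and from -0.16 to 0.13 in LNCaP, with 0.144% and 0% of all sites called. For DHT with bicalutamide against ethanol 3 of 9 in BicR had an unadjusted p under 0.05, RRM2 at -0.78 ± 0.33 (adjusted p = 0.256), MCM2 at -0.60 ± 0.26 and PCNA at -0.52 ± 0.17, and 2.79% of all sites were called. This change of RRM2 turns on single libraries: it was -1.44 (adjusted p = 0.0334) without ethanol at 6 h and -1.36 without DHT with bicalutamide at 6 h, but -0.07 (adjusted p = 0.913) without ethanol at 24 h and -0.29 without DHT with bicalutamide at 24 h. In LNCaP 0 of 9 did in that contrast, with 0.00757% of all sites called. In the remaining treatment contrasts 0 of 9 passed 0.05 with the unadjusted value. DESeq2 made 0 calls among the leading sites in any contrast of treatments. Each treatment had 1 library per time and line, which limits what could be detected: PCNA at -0.52 ± 0.17 was not called. The difference between the DHT responses of BicR and LNCaP was called for 0 of 9, with 0% of all sites called. 0 of 9 passed 0.05 with the unadjusted value, and DESeq2 made 0 calls.

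Ratios between single libraries were also taken at each time. In BicR RRM2 with DHT was 0.482 times its ethanol level at 24 h and 1.39 times at 6 h. The change in the DHT effect between these times, with DHT alone and with bicalutamide as the 2 library pairs, was -1.15 ± 0.32 on the log2 scale for RRM2 in BicR, and was not called (adjusted p = 0.136). It was -0.67 without either ethanol library. 2 of 9 had an unadjusted p under 0.05 in BicR and 0 of 9 in LNCaP, with 0.303% and 0% of all sites called. In BicR 3 leading sites were called when the DHT library of 6 h or that of 24 h was left out. At 24 h all 9 sites were lower with DHT and bicalutamide than with ethanol in BicR (median ratio 0.495) and than with DHT alone (median ratio 0.583). In LNCaP at 24 h all 9 were lower with DHT than with ethanol (median ratio 0.743) and lower with bicalutamide than with ethanol (median ratio 0.744), so that at 24 h the agonist and the antagonist libraries stood on the same side of the shared ethanol library. At 6 h in LNCaP all 9 were higher with bicalutamide than with ethanol, with a median ratio of 1.07. These ratios compare 1 library with 1 and carry no test.

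PCNA was the one gene with a second start site. Its sites changed unequally between 6 h and 24 h, by the test given below in BicR only. PCNA upstream read 18.1, 21.4, 21.7 and 24.4 RPM at 24 h in BicR with DHT and bicalutamide, DHT, bicalutamide and ethanol, against 18.0, 18.0, 16.9 and 21.6 RPM at 6 h. In LNCaP it read 23.2, 24.1, 23.2 and 27.4 RPM at 24 h, against 22.4, 23.9, 25.0 and 23.3 RPM at 6 h. Its 24 h against 6 h change was 0.05 ± 0.09 in BicR and 0.03 ± 0.09 in LNCaP, where the leading site stood at -0.96 and -0.56. Between the lines it went the other way from the leading site, lower in BicR by a log2 difference of -0.24 ± 0.07 over the 4 treatments (adjusted p = 0.00899). DESeq2 did not call this difference (-0.24, adjusted p = 0.101). In the untreated libraries, which are in no fit, PCNA upstream was higher in BicR, at 23.9 RPM against 18.3 RPM in LNCaP, from 1 library each.

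The upstream share of all PCNA tags gives the balance of the sites in 1 number per library. In BicR it was 21.7% (exact 95% binomial interval 18.7 to 24.9) with DHT and bicalutamide, 17.0% with DHT, 19.5% with bicalutamide and 16.5% (14.3 to 18.8) with ethanol at 24 h. At 6 h it was 10.5, 9.79, 9.29 and 11.2% in the same order, and 10.1% (8.78 to 11.5) in untreated cells. Every 24 h share lay above every 6 h share. In LNCaP the shares were 22.7, 25.4, 24.4 and 21.9% at 24 h, against 17.5, 18.0, 16.6 and 16% at 6 h and 15.3% (12.6 to 18.3) in untreated cells. There too every 24 h share lay above every 6 h share. In the R1881 course replicate 2 had 11.4, 11.6, 11.3, 15.7, 18.6, 25.1 and 26.9% over the 7 times. Replicate 1, on 8 to 84 PCNA tags a library, ranged from 20.0 to 47.8% with wide intervals.

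Whether the PCNA sites changed unequally was asked with diffSpliceDGE of edgeR (Simes p per neighbourhood), with sites of 1 strand joined within 6700 bp, a distance chosen after the sites were seen. It passed for 24 h against 6 h in BicR (adjusted p = 0.000708, with 5.81% of 1101 neighbourhoods called) and for BicR against LNCaP over the 4 treatments (adjusted p = 0.000289, with 25.8% called). It did not pass for 24 h against 6 h in LNCaP (unadjusted p = 0.00287, adjusted p = 0.264), where 0.272% of neighbourhoods were called. For late against early R1881 times it did not pass either (unadjusted p = 0.0916, adjusted p = 0.591), with 3.27% called. Joining within 10000 bp brings 2 further sites into the neighbourhood, so a pass there need not come from the PCNA sites. The same comparisons passed (adjusted p = 0.000335 for 24 h against 6 h in BicR and 2.53e-05 between the lines). Those of LNCaP (adjusted p = 0.861) and of late against early times (adjusted p = 0.110) again did not.

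**Figure D4:**
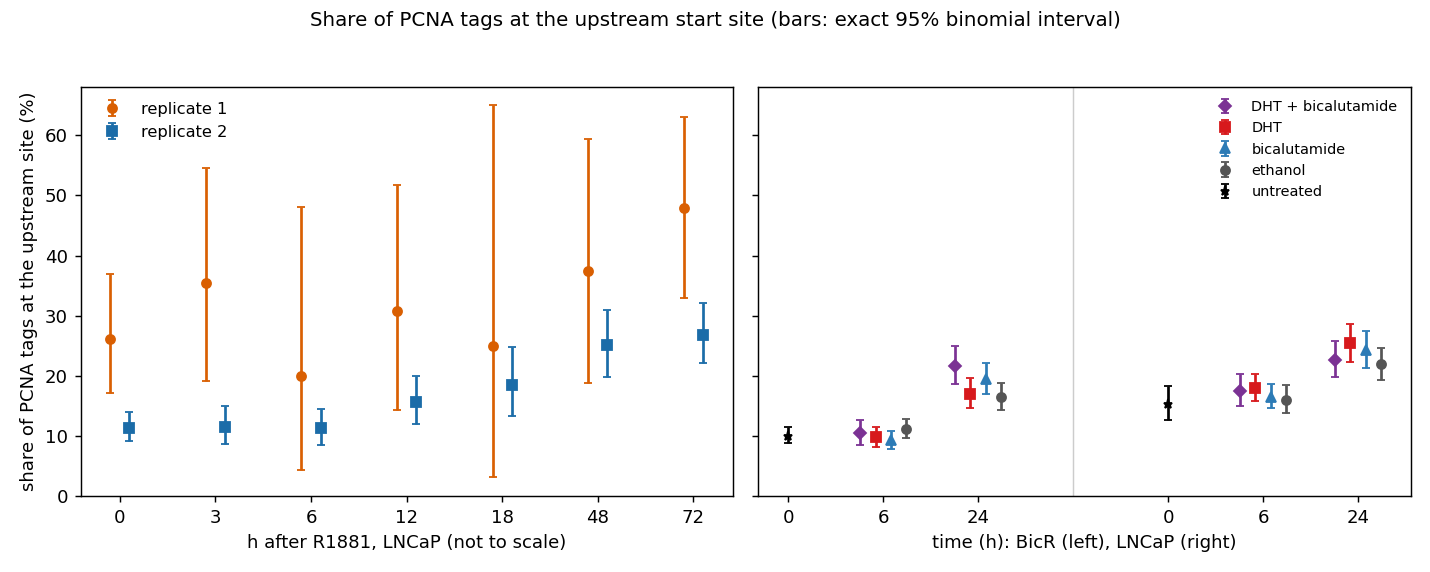
Share of PCNA tags at the upstream site in percent (y axis) in each library of the R1881 course (left) and of BicR and LNCaP (right), with bars for the exact 95% binomial interval of counting error. In BicR the 24 h shares are 16.5 to 21.7% and the 6 h shares 9.29 to 11.2%.

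The leading sites varied together over the 16 treated libraries. Among their 36 pairs, Pearson's r of log2(RPM + 1) ran from 0.637 (MCM3 with MCM6) to 0.984 (MCM2 with PCNA), with a median of 0.925. PCNA upstream had an r of -0.567 to -0.165 with each of them. These points share libraries, lines and times, so the values are a description. Of 10561 other sites with a mean of at least 10 RPM, those most like the mean course of the 9 were chr5:892998 on the plus strand (r = 0.972) and chr17:26646225 on the plus strand (r = 0.969). In BicR the first read 10.8 to 20.6 RPM at 24 h and 28.5 to 35.5 RPM at 6 h.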

How the data were processed

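Per the labels' protocols, cDNA of total RNA was selected by cap-trapping and read on a HeliScope. The build was hg19 per the submitters' processing notes, and the aligner and cluster caller are not given in the sources used here. Per the file headers each table holds raw tag counts per site and normalized values beside them. The deposited RPM values are those counts times 1 factor per library. All columns matched a sample.

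Members were found by window and strand, and a gene's leading site is its site with the highest mean RPM over the libraries of a table. The members, lists and motifs were chosen with earlier results of these data known. The lists of other replication genes and of LNCaP markers need gene names of the tables' build and were not analysed here.

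Counts were tested in R 4.3.3 with edgeR 4.0.16 (TMM, filterByExpr with a minimum count of 10, quasi-likelihood F test, Benjamini-Hochberg over all sites, called at an adjusted p under 0.05). SE is the size of the log2 change over the square root of F. The R1881 fit has 1 coefficient per time. The second table's fit of 16 libraries (13214 sites) has 1 coefficient per line and treatment and a 24 h term per line, so that the 6 h and 24 h libraries stand in for replicates. The untreated libraries are in no fit. The contrasts over 4 treatments, of DHT with bicalutamide against ethanol, and of the 24 h terms between lines, and the PCNA test, were added after seeing the data. After subtracting each time's mean, same-numbered R1881 libraries correlated at 0.149 to 0.596 in 21 of 21 pairs of times (12752 sites), which was the ground for the block. Replicate 1 was also the shallower library at every time, so pairing and depth cannot be told apart here. Alternatives were DESeq2 1.42.0, no filter, other scalings, the replicate block and leaving out libraries. The script was tested on simulated data.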

Additional observations from a re-analysis of the deposited data

Results flagged for a closer look

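MCM5, a subunit of the replicative helicase, was looked at again because its DHT libraries stood on opposite sides of ethanol in the lines. In BicR the log2 ratio of DHT over ethanol was 0.13 at 6 h and 0.08 at 24 h, and in LNCaP it was -0.34 at 6 h and -0.36 at 24 h, a mean difference of 0.45 between the lines. The direction in each line rests on 2 libraries with DHT and 2 with ethanol and was not tested by itself. In the fit of the DHT response in BicR against that in LNCaP MCM5 stood at 0.39 ± 0.33 (SE), with an adjusted p of 0.916 by edgeR's quasi-likelihood test.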

How the results depend on the processing

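Of 294 counts of called leading sites under alternatives (23 results), 256 stayed within 1.5 times the main count. In most of these results the main count was 0, and counts that stayed at 0 are among the 256. The total is therefore no measure of how stable the calls were. Of 750 values of single sites (53 results), 673 kept direction and side of the threshold, 36 lost a call, 31 gained one and 10 changed sign. With the replicate block the R1881 counts were 5 at 48 h and 7 at 72 h. DESeq2, and no filter on low counts, gave 1 each at 72 h. Without the replicate 2 libraries of 6 h and 18 h, 1 site was called at 48 h, 1 at 72 h and 2 for late against early times. Without the 4 shallowest libraries the counts were 2, 3 and 8 in that order. DESeq2 called 4 sites for 24 h against 6 h in LNCaP and 0 for BicR against LNCaP with ethanol. Without the time term 0 sites were called for the lines with ethanol and 4 over the 4 treatments. Without the BicR library with DHT and bicalutamide at 6 h, 7 were called for 24 h against 6 h in LNCaP, 7 for the lines with ethanol and 1 for DHT with bicalutamide against ethanol in BicR. Leaving out 1 library at a time gave 1 to 6 calls for late against early times, 0 to 3 for 24 h against 6 h in LNCaP, 8 to 9 in BicR, 0 to 1 for the lines with ethanol, 8 to 9 over the 4 treatments, 0 to 1 for DHT with bicalutamide against ethanol in BicR and 0 to 3 for the DHT effect at 24 h against 6 h in BicR. Apart from the replicate block, the shares of all sites called under these alternatives are not given here. These counts therefore do not show whether calls rose among all sites as well. The cause of these moves was not tested. Signs changed when 1 library was left out. Over these settings the log2 change of MCM6 ran from -1.17 to 1.03 at 48 h and from -1.53 to 0.66 at 72 h, and that of CDC6 from -3.30 to 1.10 and from -3.85 to 0.23, the positive values all being those without replicate 2 of 0 h. The DHT change of RRM2 ran from -0.60 to 0.012 in LNCaP (positive without the DHT library of 24 h) and from -1.002 to 0.37 in BicR (positive without the ethanol library of 24 h), and the change of its DHT effect with time in LNCaP from -0.58 to 0.095 (positive in 4 of 8 settings). Depth limits replicate 1 of the R1881 course most, where 1 tag was worth up to 6.48 RPM.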
